A study of Saccharomyces cerevisiae with 6 samples.

Results

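The fragments described here are 191 pieces of nucleosomal DNA of Saccharomyces cerevisiae, 130 to 159 bp long, that the nucleosome catalogue used by the study marks as intergenic and to which it gives no position in a gene. They were chosen among 8024 library fragments with reads in the count lists. Of these, 938 were marked intergenic without a gene position, 630 of them had core length, 547 lay neither in the rDNA nor in a telomeric region, 509 lay at least 30 kb from a chromosome end and outside 451000 to 469000 of chromosome XII, and 192 lay outside Ty elements and their long terminal repeats. A minimum of 10 reads in each gel section, summed over both sequencing runs, left 191 fragments that belong to 172 catalogued nucleosomes. The single fragment that missed the minimum lay in RPL21B (chrXVI:407161-407307) and had 13 section A and 9 section B reads, while the scarcest fragment kept, chrX:173680-173830, had 10 in each.

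The library was made from mononucleosomes released by micrococcal nuclease from strain FY251 (MATa with his3, leu2, trp1 and ura3 mutations), cloned into the minichromosome YCp1.3 and returned to FY251, so every value describes a sequence in the same small circle and not at its native locus. The transformed colonies were pooled and lysed together, the circles were run in 1 gel with chloroquine, and the smear of topoisomers was cut into a top section, Topo-seq-A, and a bottom section, Topo-seq-B. The inserts of both sections and of the library before the gel (NucLib) were amplified by PCR and sequenced in 2 runs each. The runs are repeats of the sequencing of 1 gel, so that p-values measure only the spread between runs, which is technical.

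A nucleosome wraps DNA in a left-handed superhelix and thereby restrains a negative linking number difference, ∆Lk, which remains in a circular DNA once the proteins are removed. Circles whose insert restrained a less negative ∆Lk were enriched in section A, and circles with a more negative ∆Lk in section B. In yeast, the stretch between genes holds the promoter and, in front of many promoters, a nucleosome-depleted region. Divergent neighbours share such a stretch between their starts, tandem neighbours have a start on one side and an end on the other, and convergent neighbours meet with their ends.

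The mark was checked against the R64 gene annotation, in which a gene spans the coding sequence with its introns, and for most fragments the annotation went against it. The midpoint lay inside a protein-coding gene for 143 of the 191 fragments (74.9%), in an exon for 141 and in an intron for 2, and 128 fragments lay wholly within such a gene. The other 48 had their midpoint between genes, and 7 of these overlapped the edge of one. The 143 fragments fell in 92 genes whose median length was 2760 bp, against 1200 bp for all 6002 protein-coding genes. Their midpoints lay a median of 2130 bp from the start of the gene, and 109 (76.2%) lay more than 1000 bp from it. Among the 2335 core-length fragments to which the same catalogue gives a gene position, chosen by the same limits and called catalogued genic fragments below, 2004 had their midpoint in a gene, at a median of 660 bp from its start, and 702 of those (35.0%) lay beyond 1000 bp. The 191 are therefore called fragments marked intergenic, and the 48 between genes are given apart from the 143 inside genes, a split made after the annotation had been compared. Of the 48, 15 lay between divergent genes, 21 between tandem genes and 12 between convergent genes, on 14, 20 and 12 nucleosomes.

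The sequences that carry the results below are printed from the R64 reference of RefSeq, forward strand, 5′ to 3′. They are the leading fragments of each class under the rule for naming given below, which asks for at least 50 reads per section, the convergent fragments with the highest and the lowest ∆Lk (chosen after their values were seen, since no convergent fragment met the rule for naming), the fragment that the study also examined by itself in a minichromosome, and the most negative fragment of all. Capitals mark a match, on either strand, to TATAAA, to CGGGTAA, to CACGTG or to TGACTC, and runs of at least 6 A or 6 T.
SND1/CCT6, chrIV:835933-836065: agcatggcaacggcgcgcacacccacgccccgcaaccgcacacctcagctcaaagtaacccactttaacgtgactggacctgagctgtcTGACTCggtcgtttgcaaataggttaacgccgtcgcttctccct
YKR073C/AIM29, chrXI:578477-578613: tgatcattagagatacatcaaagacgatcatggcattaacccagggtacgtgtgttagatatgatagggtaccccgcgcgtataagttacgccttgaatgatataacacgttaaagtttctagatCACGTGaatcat
ILV5/ATG33, chrXII:839643-839772: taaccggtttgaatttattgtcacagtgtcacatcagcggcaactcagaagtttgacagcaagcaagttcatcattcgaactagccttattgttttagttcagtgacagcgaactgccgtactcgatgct
MET14/VPS1, chrXI:439673-439806: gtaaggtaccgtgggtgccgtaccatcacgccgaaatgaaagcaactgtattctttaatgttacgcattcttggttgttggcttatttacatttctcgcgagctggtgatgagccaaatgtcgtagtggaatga
YPR015C/TIF6, chrXVI:591561-591713: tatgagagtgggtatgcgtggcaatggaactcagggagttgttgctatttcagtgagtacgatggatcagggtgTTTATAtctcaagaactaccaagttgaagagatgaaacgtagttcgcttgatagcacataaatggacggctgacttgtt
RBG2/CBP4, chrVII:844984-845124: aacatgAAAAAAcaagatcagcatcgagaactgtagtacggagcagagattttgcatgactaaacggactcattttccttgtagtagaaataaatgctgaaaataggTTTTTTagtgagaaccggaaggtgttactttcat
TTI1/IXR1, chrXI:379255-379407: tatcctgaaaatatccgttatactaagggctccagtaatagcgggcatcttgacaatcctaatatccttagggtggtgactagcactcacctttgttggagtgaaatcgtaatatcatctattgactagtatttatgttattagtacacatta
CDC25, chrXII:752923-753058: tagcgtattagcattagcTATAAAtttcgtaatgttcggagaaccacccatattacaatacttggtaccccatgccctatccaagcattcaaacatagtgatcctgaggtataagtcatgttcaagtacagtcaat
RPL7B intron, chrXVI:173413-173549: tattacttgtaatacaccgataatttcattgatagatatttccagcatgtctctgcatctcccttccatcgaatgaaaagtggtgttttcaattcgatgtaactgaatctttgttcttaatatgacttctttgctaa
YPR063C, chrXVI:678052-678201: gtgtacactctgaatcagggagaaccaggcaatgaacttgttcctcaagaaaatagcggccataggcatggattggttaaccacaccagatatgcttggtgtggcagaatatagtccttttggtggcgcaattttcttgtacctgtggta
HKR1, chrIV:1308154-1308309: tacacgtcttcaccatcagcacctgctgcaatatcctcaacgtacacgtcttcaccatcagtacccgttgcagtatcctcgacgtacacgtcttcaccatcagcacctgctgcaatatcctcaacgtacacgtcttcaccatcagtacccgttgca

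Of the 191 fragments, 100 had more reads in section A than in section B and 9 had fewer, each relative to the list totals and with an adjusted p under 0.05 in edgeR's quasi-likelihood test, and 82 were not called. Over all 8018 fragments tested, 27.8% were called toward section A and 20.5% toward section B, while the catalogued genic fragments had 43.2% and 7.45%. The fragments marked intergenic held 1.94% and 1.92% of the reads in the runs of section A, 1.28% and 1.30% in those of section B, and 2.41% and 2.45% in NucLib. The section A runs did not overlap the section B runs, and the exact two-sided permutation test over these 4 libraries gave p = 0.333, the smallest that 2 against 2 allows. The share of catalogued genic fragments moved the same way and further, with 55.2% in both runs of section A and 30.7% and 31.2% in those of section B. The convergent share moved the other way, with 0.0458% and 0.0463% in section A and 0.0474% and 0.0499% in section B. Such shares weigh fragments by their reads. The largest counts of a single catalogued genic fragment were 877854 section A and 374853 section B reads, summed over runs. Among convergent fragments they were 848 and 1055. Counted by fragment, 8 of 12 convergent, 76.3% of catalogued genic and 78.5% of the fragments marked intergenic had a higher relative abundance in section A. Under TMM scaling, which takes a trimmed mean of ratios between libraries as the zero point, 61 fragments were called toward section A and 12 toward section B. The shares over all fragments were then 19.5% and 24.2%. The 48 fragments between genes gave 21 calls toward section A and 3 toward section B, with 6 and 2 of 15 divergent, 12 and 0 of 21 tandem, and 3 and 1 of 12 convergent fragments.

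Fragment length moved with the partition, as the plot of partition by length shows. The mean log2 ratio of section A to section B was 0.01 for 13 fragments of 130 to 134 bp, 0.24 for 18 of 135 to 139 bp, 0.62 for 20 of 140 to 144 bp, 0.65 for 40 of 145 to 149 bp, 0.54 for 58 of 150 to 154 bp and 0.16 for 42 of 155 to 159 bp. Catalogued genic fragments followed the same course, at −0.25, 0.09, 0.43, 0.54, 0.48 and 0.23 in the same order of length. The SD within these length bins ran between 0.38 and 0.77 for the fragments marked intergenic, wider than any step between neighbouring bins.

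**Figure D1:**
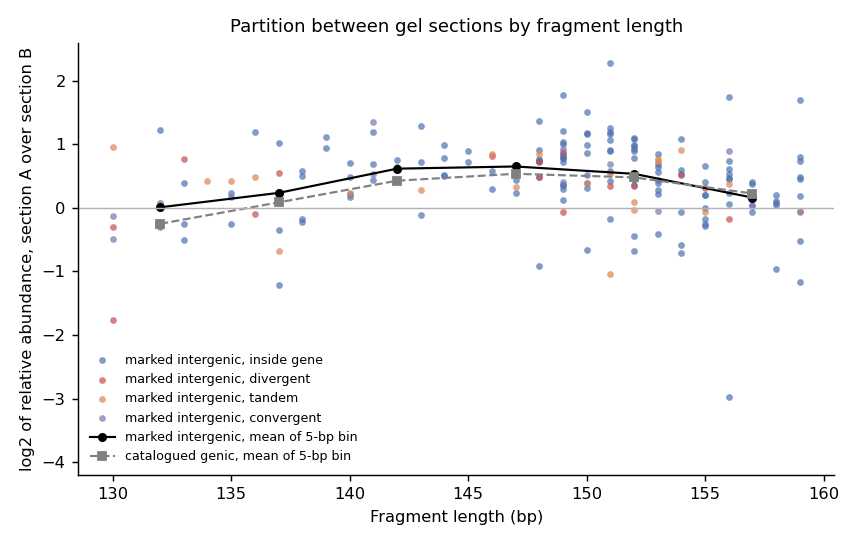
Each point is 1 of the 191 fragments marked intergenic, by its length in bp and the log2 ratio of its relative abundance in section A over section B; lines join the means of 5-bp bins, for these fragments and for the 2335 catalogued genic fragments. Both lines are lowest at 130 to 134 bp and highest at 145 to 149 bp, where the fragments marked intergenic average 0.65.

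When each fragment was set against library fragments of its own length, through an offset in the same edgeR test, 37 fragments were called toward section A, 8 toward section B and 146 were not called. Over all fragments 18.2% were called toward section A and 13.9% toward section B at equal length, so that the 37 of 191 (19.4%) lay near the background. The 8 of 191 (4.19%) lay under it. This split depended on the scaling, since TMM gave 19 calls toward section A and 26 toward section B, against 10.8% and 19.8% over all fragments. DESeq2 gave 4 each way among the 161 fragments to which it gave an adjusted p, against 4.8% and 10.7% over all fragments. Of the 37, 22 were among the 52 fragments whose scarcer section held 200 or more reads, whereas 6 of the 8 were among the 72 fragments with under 50 there. Between genes 6 of 48 fragments were called toward section A and 3 toward section B, which splits into 2 and 1 divergent, 3 and 1 tandem, and 1 and 1 convergent.

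∆Lk was computed from the same partition by the steps of the study, and the library mean is set at −1.26. The fragments marked intergenic averaged −1.28 (SD 0.227, n = 191 fragments; median −1.26), and 96 of them were less negative than −1.26. Run 1 alone gave −1.27 and run 2 alone −1.29. The catalogued genic fragments averaged −1.30 (SD 0.263, n = 2335), with −1.30 in each run. The difference was 0.0231, with 0.0362 and 0.0120 in the runs, and it shrank to 0.00249 when fragments of the same nucleosome were averaged first. All of these were far smaller than the SD between fragments. Fragments are not replicates of a condition, so no test was made. ∆Lk contains a correction per bp, and its mean fell with length. In the fragments marked intergenic it was −1.119 at 130 to 134 bp and −1.385 at 155 to 159 bp. Catalogued genic fragments had −1.234 and −1.36 in these bins. In both sets this fall was larger than the difference between them.

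The classes between genes overlapped over most of their range. ∆Lk averaged −1.30 in divergent fragments (SD 0.207, range −1.71 to −0.858), −1.29 in tandem fragments (SD 0.227, range −1.88 to −0.730), −1.25 in convergent fragments (SD 0.163, range −1.48 to −0.920) and −1.28 in fragments inside genes (SD 0.235, range −2.48 to −0.683). The order of the classes was not stable between runs, since divergent fragments averaged −1.25 in run 1 and −1.36 in run 2, tandem fragments −1.25 and −1.32, and convergent fragments −1.26 and −1.23. Divergent minus convergent was −0.0473 with both runs, 0.00989 in run 1 and −0.127 in run 2, and tandem minus convergent was −0.0424, 0.00607 and −0.0931. The 3 classes thus differed by less than the spread between the runs of the convergent comparisons and by far less than the spread between fragments.

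**Figure D2:**
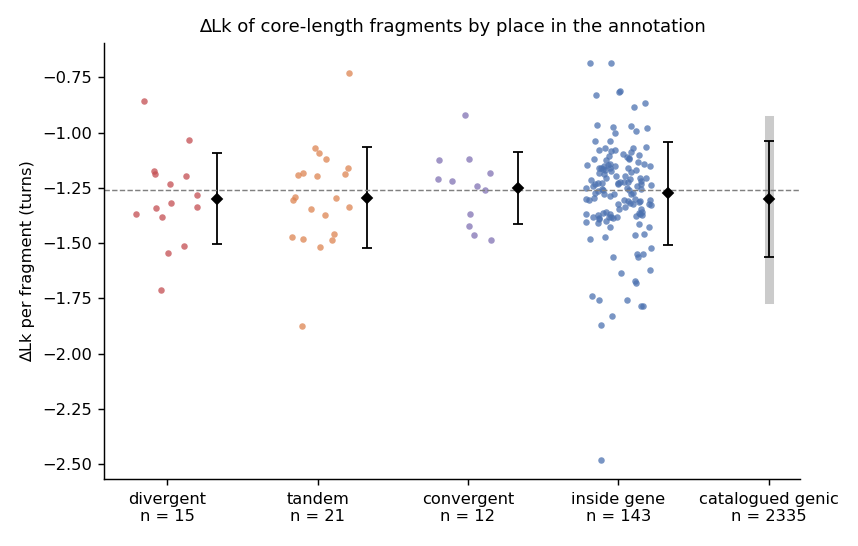
Each point is the ∆Lk of 1 fragment marked intergenic, grouped by the genes around its midpoint; diamonds with bars give the mean ± SD over fragments, the grey band covers the 5th to 95th percentile of the 2335 catalogued genic fragments, and the dashed line is the library mean of −1.26. The means lie between −1.30 and −1.25 and the classes overlap.

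Fragments are named below where they had at least 50 reads per section, a call at equal length and both runs to the same side of −1.26, up to 4 on each side of each class. Among divergent fragments 3 did so. The fragment between SND1, a factor that targets proteins to the endoplasmic reticulum, and CCT6, a subunit of the cytosolic chaperonin TRiC, had 462 and 473 RPM (reads per 1000000 reads of the list) in section A, 288 and 265 in section B, and 325 and 307 in NucLib. Both runs of section A lay above all other libraries. Its ∆Lk was −0.858 (counting error 0.0213), with −0.900 and −0.829 in the runs, and at equal length it favoured section A by 0.89 on the log2 scale (SE 0.07, adjusted p = 1.82e-14, edgeR). Its midpoint lay 422 bp from the nearer gene start, its GC content was 57.9%, and it holds the TGACTC printed above, the core that the amino acid starvation activator Gcn4 binds.

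The fragment between YKR073C and AIM29 had 58.8 and 61.8 RPM in section A, 37.8 and 43.4 in section B, and 62.2 and 62.9 in NucLib, so that the sections did not overlap. It contains CACGTG, lay 38 bp from a gene start and had a ∆Lk of −1.03 (−1.01 and −1.05 in the runs). The difference at equal length was 0.49 (SE 0.17, adjusted p = 0.0234, edgeR), but the call was lost when either run of section A or run 1 of section B was left out, at adjusted p = 0.0533, 0.0900 and 0.148, and under TMM scaling (0.30, adjusted p = 0.200).

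Between ILV5, an enzyme of branched-chain amino acid synthesis, and ATG33, which acts in the autophagy of mitochondria, a fragment of 130 bp favoured section B. It had 22.7 and 10.6 RPM in section A, 59.4 and 57.4 in section B, and 5.87 and 7.44 in NucLib. The NucLib values rest on 5 and 13 reads, and the runs of section A differed by more than those of section B. Its ∆Lk was −1.71 (−1.58 and −1.94 in the runs) and it fell by 1.53 on the log2 scale at equal length (SE 0.23, adjusted p = 5.59e-07, edgeR). Without run 1 of section A this value was −2.22, and without run 2 it was −1.13.

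Between tandem genes, 2 fragments met the rule for naming and both were less negative. The fragment between MET14, a kinase of sulfate assimilation, and VPS1, a dynamin-like GTPase, is the single fragment within 5 kb of a centromere and the most abundant one between genes, with 768 and 777 RPM in section A, 555 and 591 in section B, and 923 and 947 in NucLib. Its ∆Lk was −1.09 (−1.07 and −1.11 in the runs). At equal length it favoured section A by 0.27 (SE 0.05, adjusted p = 3.42e-05, edgeR), a call lost under TMM scaling (0.08, adjusted p = 0.260). The fragment between YPR015C and TIF6, a factor of 60S ribosomal subunit maturation, holds the TATAAA printed above on the reverse strand. It had 162 and 145 RPM in section A, 90.5 and 90.6 in section B, and 217 and 178 in NucLib, and a ∆Lk of −1.19. Its difference at equal length was 0.36 (SE 0.11, adjusted p = 0.0104, edgeR) and was not called without run 1 of section A (adjusted p = 0.157) or under TMM scaling (adjusted p = 0.286).

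The extremes of the tandem class were scarce fragments, named here after their values were seen. The fragment between LOT5 and FAS1, the beta subunit of fatty acid synthase, had 29 and 30 section A reads, 13 and 14 section B reads, a ∆Lk of −0.730 and the highest GC content of all 191, 63.1%. The fragment next to RGI2 had 5 and 6 section A reads and 5 and 15 section B reads, with 5 in both sections of run 1, and a ∆Lk of −1.88 (counting error 0.195). It lay within 500 bp of a replication origin. The 7 fragments that did so, the RGI2 fragment among them, averaged −1.41 (SD 0.295, median −1.36), and 5 of these lay inside genes. These 7 came from 6 nucleosomes, ranged from −1.88 to −1.15, and 3 lay above the library mean. Their median reads were only 44 in section A and 33 in section B. Whether ∆Lk is related to replication origins was not tested.

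No convergent fragment met these conditions. The highest, between RBG2, a GTP-binding protein, and CBP4, an assembly factor of the mitochondrial cytochrome bc1 complex, had 73 and 57 section A reads, 22 and 23 section B reads and a ∆Lk of −0.920 (−0.963 and −0.896 in the runs). At equal length it favoured section A by 0.89 (SE 0.25, adjusted p = 0.00584, edgeR), and its sequence carries 2 runs of 6 A or T. The lowest, between TTI1 and IXR1, an HMG-box DNA-binding protein, had 78 and 71 section A reads, 60 and 76 section B reads and a ∆Lk of −1.48 (−1.52 and −1.45), with no call (−0.44, adjusted p = 0.0629, edgeR). The fragment between the glycogen phosphorylase gene GPH1 and the kinase gene SGV1 was called toward section B at equal length (−0.24, SE 0.08, adjusted p = 0.0168, edgeR) while its ∆Lk equalled the library mean at −1.26. At 130 bp it receives the largest addition of the correction per bp that ∆Lk contains and the edgeR offset does not.

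Inside genes, the rule named 4 fragments and all were less negative than −1.26. In CDC25, the exchange factor that activates Ras, the fragment had 211 and 210 RPM in section A, 91.2 and 92.2 in section B, and 160 and 147 in NucLib. The 3 libraries were apart in both runs, ∆Lk was −0.811 in the summed runs (−0.814 and −0.816), and the difference at equal length was 1.1 (SE 0.10, adjusted p = 6.8e-12, edgeR). Its midpoint lay 4002 bp from the start of a gene of 4770 bp, and TATAAA occurs on the forward strand.

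In UBP5, which encodes a ubiquitin-specific protease, the fragment had 422 and 392 RPM in section A, 157 and 175 in section B, and 461 and 406 in NucLib, with a ∆Lk of −0.968 and a difference of 0.80 (SE 0.08, adjusted p = 4.56e-11, edgeR). The only 2 fragments with a midpoint in an intron, in RPL7B and in MPT5, were both among the named ones. The RPL7B fragment, in a gene for a protein of the large ribosomal subunit, had 39.1 and 40.0 RPM in section A, 22.3 and 17.2 in section B, and 52.8 and 54.9 in NucLib, a ∆Lk of −0.864 and a GC content of 32.8%. The MPT5 fragment, in a gene for an RNA-binding protein of the Puf family, had 55.0 and 40.6 in section A, 21.6 and 23.1 in section B, and 39.9 and 42.9 in NucLib, and a ∆Lk of −0.977. The MPT5 call was lost without run 1 of section A (adjusted p = 0.272) and under TMM scaling (adjusted p = 0.0807). Under DESeq2, the fragments of SND1/CCT6, ILV5/ATG33, CDC25 and UBP5 were still called, and the others named by the rule were not, at adjusted p = 0.552 for YKR073C/AIM29, 0.667 for MET14/VPS1, 0.652 for YPR015C/TIF6, 0.178 for RPL7B and 0.418 for MPT5.

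**Figure D3:**
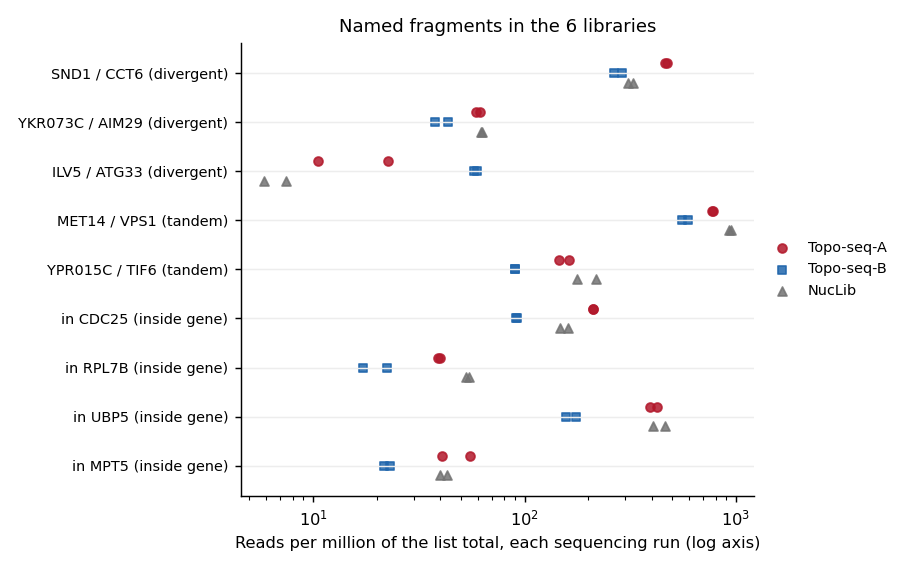
Abundance in RPM (log axis) in each sequencing run of Topo-seq-A, Topo-seq-B and NucLib, for the 9 fragments named by the rule, labelled by flanking or host genes. In 8 of them both runs of section A lie above both runs of section B, and the ILV5/ATG33 fragment has the opposite order. The rule asks for a call on these same counts, so that runs apart in this way follow largely from the choice.

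Fragments inside genes that were called toward section B at equal length were scarce. Named after their values were seen, they lay in HKR1, in PPZ1, a protein phosphatase gene (12 and 13 section A reads, 20 and 30 section B reads, ∆Lk −1.87), in SEN1, an RNA and DNA helicase of transcription termination (13 and 17 against 26 and 24, ∆Lk −1.83), in CCH1, a calcium channel gene (15 and 12 against 18 and 21, ∆Lk −1.78), and in HSL1, a kinase gene of the morphogenesis checkpoint (5 and 11 against 18 and 15, ∆Lk −1.68). At the other end lay fragments in STO1, for the large subunit of the nuclear cap-binding complex (17 and 12 section A reads, 7 and 4 section B reads, ∆Lk −0.683), and in MLP1, for a protein of the nuclear pore basket (36 and 30 against 7 and 5, ∆Lk −0.686). More abundant fragments were called toward section B only before length was taken into account, in BUB1, a kinase gene of the spindle checkpoint (88 and 56 section A reads, 86 and 95 section B reads, adjusted p = 0.0174, and 0.107 at equal length, edgeR), and in PDC5, a pyruvate decarboxylase gene (167 and 141 against 153 and 184, adjusted p = 0.0385, and 0.413 at equal length, edgeR). The counting errors of the STO1 and MLP1 fragments, 0.182 and 0.149, were several times that of the CDC25 fragment, 0.0346.

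Some genes held several fragments each. DYN1, the dynein heavy chain gene of 12279 bp, had 5 fragments on 4 nucleosomes with ∆Lk between −1.56 and −1.06, NSP1, a nucleoporin gene, had 4 on 4 nucleosomes between −1.38 and −1.04, and FAS2, the alpha subunit gene of fatty acid synthase, had 3 between −1.30 and −1.0. The full range within each of these genes was wider than the span between the 25th and 75th percentiles of the whole set, −1.38 and −1.16. This did not hold for every gene with several fragments. FUN12 and CHS6, with 3 fragments each, spanned only −1.363 to −1.233 and −1.305 to −1.149, while the 3 in NUP188 spanned −1.785 to −1.069. The 34 fragments within 1000 bp of the start of their gene averaged −1.22 (SD 0.176) and the 109 beyond it −1.29 (SD 0.249), whereas catalogued genic fragments averaged −1.30 on both sides of that limit (1302 within and 702 beyond). The 34 include 4 fragments on 1 nucleosome of ADH2 (mean −1.09) and the RPL7B and MPT5 intron fragments. Among the 109 is the scarce HKR1 fragment at −2.48, whose counts are uncertain.

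Some stretches between genes held more than 1 fragment. In the 3870 bp between YIR018C-A and the end of FLO11, a flocculin gene, a fragment of 143 bp had 397 and 310 section A reads, 231 and 286 section B reads and a ∆Lk of −1.34, and one of 153 bp had 54 and 42 against 16 and 35 and −1.20 (−1.02 and −1.32 in the runs). Neither was called at equal length. Between GSP2, a Ran GTPase gene, and YOR186W, 3 fragments on 2 nucleosomes had −1.34, −1.20 and −1.17, again without a call at equal length. Between EMA17 and EMC5, overlapping fragments of 159 and 148 bp of the same nucleosome had −1.46 and −1.19, a gap larger than their counting errors of 0.0473 and 0.0685. Part of this gap is the correction per bp, and neither fragment was called at equal length (adjusted p = 0.244 and 0.298, edgeR).

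The most abundant fragments lay near the library mean in ∆Lk, but differed in their calls at equal length. SEC16, whose product organises the sites where COPII vesicles form, held the fragment with most NucLib reads, with 1229 and 1272 RPM in section A, 853 and 864 in section B, and 1702 and 1758 in NucLib. Its ∆Lk was −1.33 and its difference at equal length 0.02 (SE 0.04, adjusted p = 0.737, edgeR), while under TMM scaling it was called toward section B (−0.17, adjusted p = 0.000595). The RPL21B fragment had 1112 and 1092 in section A, 582 and 573 in section B, and 1148 and 1217 in NucLib, and a ∆Lk of −1.17. It was called toward section A at equal length (0.40, SE 0.04, adjusted p = 1.34e-09, edgeR), as was the 159-bp fragment of HKR1 described below (0.31, SE 0.03, adjusted p = 4.94e-10, edgeR), and DESeq2 called neither (adjusted p = 0.152 and 0.389). The fragment in YPR063C, which the study also placed alone in a minichromosome, had 508 and 521 in section A, 276 and 285 in section B, and 567 and 554 in NucLib, and a ∆Lk of −1.20 in both runs, with a difference at equal length of 0.30 (SE 0.06, adjusted p = 0.00022, edgeR). That call was lost under TMM scaling (0.11, adjusted p = 0.199) and DESeq2 (0.14, adjusted p = 0.595). The study's own Topo-seq ∆Lk for the YPR063C fragment lay between the library mean and the value given here. Its ∆Lk from the minichromosome alone lay very close to that mean, on the more negative side. By the study's account, the inserts examined singly were a few bp shorter than this fragment. Over all nucleosomes examined that way, the study reports a good correlation between both measures.

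Fragments of 1 nucleosome could be compared in 13 nucleosomes, which held 32 of the 191 fragments, and their pooled SD within a nucleosome was 0.246. Without the pair in HKR1, whose counts are uncertain, the SD over the other 12 nucleosomes was 0.150. SEC31, for the outer coat of COPII vesicles, and ADH2, for the alcohol dehydrogenase that glucose represses, had 4 each. The 4 fragments in ADH2 lay at −0.980, −1.08, −1.08 and −1.21, all above −1.26, and 2 of them were called toward section A at equal length, of which DESeq2 kept 1 (adjusted p = 0.0351, and 0.0506 for the other). In SEC31, a fragment of 151 bp had a ∆Lk of −1.07 with 677 section A reads, and one of 141 bp that starts at the same base had −1.16 with 2867 reads. The other SEC31 fragments had 15 and 12 section A reads and values of −1.37 and −1.35, with counting errors of 0.188 and 0.217 of about the size of the gap to the abundant ones.

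HKR1, which encodes a mucin-like sensor of the cell surface, gave the widest gap, 1.22. A fragment of 159 bp had 3845 and 3222 section A reads, 1994 and 2465 section B reads and a ∆Lk of −1.26, and one of 156 bp with the same end had 4 and 7 section A reads, 28 and 49 section B reads and −2.48 (−2.59 and −2.38 in the runs). The scarce fragment was called toward section B at equal length (−3.21, SE 0.40, adjusted p = 1.08e-08, edgeR). As the printed sequence shows, this stretch repeats a unit several times, and every 30-base word of both fragments occurs more than once in the genome, so the counts of both are uncertain. In all, 14 of the 191 fragments held at least 1 such word, 6 of them in over 50% of their words (in HKR1, in FLO5 and beside TAH11), and the other 177 averaged −1.27 (SD 0.212).

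The 48 fragments between genes and the 143 inside them differed in sequence. Between genes the GC content averaged 39.8% (SD 6.07), with 40.9% in divergent, 40.9% in tandem and 36.4% in convergent fragments, and inside genes it was 41.4% (SD 4.86), against 42.2% (SD 6.48) in catalogued genic fragments. TATAAA on either strand was found in 12 of 48 fragments between genes (25%) and in 7 of 143 inside genes (4.90%), against 9.64% of catalogued genic fragments. A run of at least 6 A or 6 T was found in 29.2% of fragments between genes and in 11.9% of those inside genes, against 17.8%. Across the 48 fragments between genes GC content and ∆Lk had a Spearman rho of 0.43, across the 143 inside genes 0.14, and across catalogued genic fragments 0.09. These points share the same libraries, and the high-GC end between genes consists of the SND1/CCT6 and LOT5/FAS1 fragments.

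**Figure D4:**
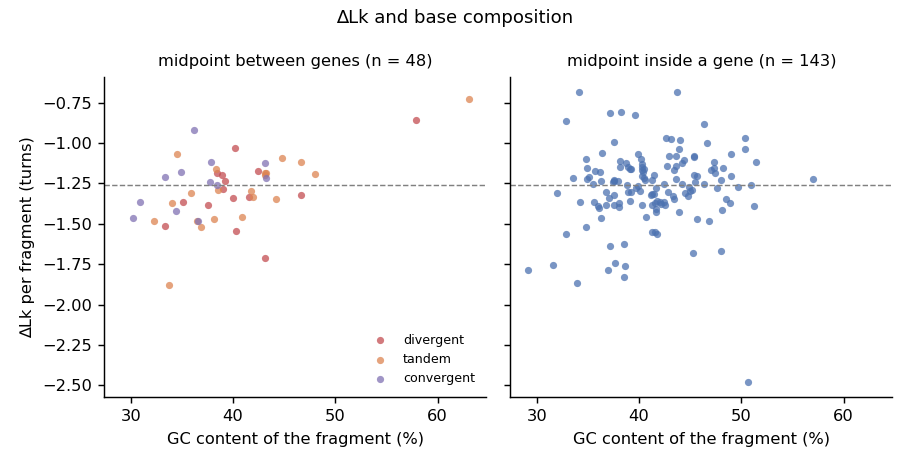
∆Lk of each fragment against its GC content in percent, for the 48 fragments with a midpoint between genes (left, coloured by class) and the 143 inside genes (right); the dashed line is the library mean of −1.26. Above 55% GC on the left lie only the SND1/CCT6 fragment at −0.858 and the LOT5/FAS1 fragment at −0.730.

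Position between genes was only loosely related to ∆Lk. The 48 fragments lay in 44 stretches between genes. Over the 48, the length of the stretch had a median of 1066 bp, between 210 and 3949 bp, and a Spearman rho of −0.05 against ∆Lk. For the 36 divergent and tandem fragments the midpoint lay a median of 516 bp from the nearest gene start (rho −0.14). The 15 divergent fragments alone gave −0.43, over few and unequally sequenced fragments.

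RNA genes overlapped 6 of the 48 fragments between protein-coding genes. The fragments on the snoRNA genes SNR190, SNR42 and SNR35 had ∆Lk values of −1.52, −1.47 and −1.30, and those on the tRNA genes SUF1, YNCB0017C and YNCJ0023C −1.22, −1.35 and −1.13. The first was measured with 21 section A and 19 section B reads and differed between runs, at −1.20 and −1.62. The 3 tRNA gene fragments share 30-base words with other loci.

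Of the flanking gene lists, none had as many as 5 genes whose start faced a fragment between genes. A start of 1 cell wall gene (CRH1, −1.19), 1 proteasome gene (PRE10, −1.37) and 1 ribosomal protein gene (RPS7A, −1.51) did so, and no gene on the lists for glycolysis and fermentation, histones, chaperones and heat shock, hexose transporters or translation factors. The chaperone list does not hold the TRiC subunits, of which CCT6 has its start facing a fragment. Inside genes, the glycolysis and fermentation list had 5 fragments, with a median of −1.08. Of these, 4 lay on 1 nucleosome of ADH2 and 1 lay in PDC5, so that this median rests mainly on 1 nucleosome. The cell wall list had 4 in FLO5 (median −1.24) and the ribosomal protein list 4, in RPL13A, RPL21B, RPL7B and RPS11A (median −1.22), beside a median of −1.26 over all 191 fragments. Of the FLO5 fragments, 3 lay on 1 nucleosome, and over 50% of their 30-base words occur more than once in the genome.

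Sequencing depth set how far single fragments could be read. The counting error of ∆Lk had a root mean square of 0.104, equal to 21.0% of the variance between the 191 fragments. Across fragments the runs correlated with a Pearson r of 0.588 and a Spearman rho of 0.521, and for 134 of 191 both runs fell to one side of −1.26. The 52 fragments whose scarcer section held 200 or more reads averaged −1.22 (SD 0.130), the 67 with 50 to 199 reads −1.26 (SD 0.141) and the 72 with fewer −1.33 (SD 0.318), and catalogued genic fragments had −1.24, −1.30 and −1.33 in the same order. Reads thus moved with mean and spread in both sets, and their part in the difference between the sets was not tested.

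**Figure D5:**
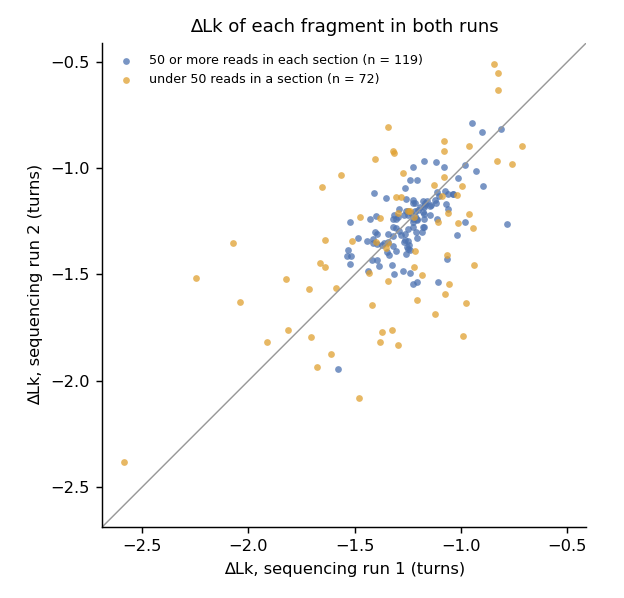
∆Lk of each of the 191 fragments computed from run 1 alone (x axis) and from run 2 alone (y axis), coloured by whether both sections had at least 50 reads; the line is equality. The 72 fragments with under 50 reads in a section scatter widest, and the lowest point is the 156-bp HKR1 fragment.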

How the data were processed

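The 6 lists hold NucLib, Topo-seq-A and Topo-seq-B in 2 sequencing runs each. The deposited values are raw read counts per distinct fragment and run: the authors trimmed adaptors, mapped read pairs to R64-1-1 with Bowtie 1.1.2 and counted each fragment, and BWA, SAMtools and Picard appear in their processing notes as well. Each list, sorted by count, stops at line 65536, so its total is a lower bound of the depth: 2073823 and 1698433 for section A, 1480629 and 1865197 for section B, 851697 and 1748161 for NucLib. The reads are PCR products without a use of molecular identifiers, so counting errors cover counting only. Library fragments and their classes came from the study's supplement (192 fragments had no class here). Coordinates were converted to 1-based R64 positions.

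∆Lk was the normal quantile of A/(A+B) of relative abundances, times 0.85, minus the mean of library fragments of the same length, plus 0.007 per bp under 144 bp, plus −1.26. Its counting error was propagated from the reads of both sections. edgeR 4.0.16 (quasi-likelihood, Benjamini-Hochberg over 8018 fragments with at least 10 reads per section, threshold 0.05) compared section A with section B on list totals, without and with an offset equal to the mean log2 ratio of the same length. The fits were checked on simulated counts. Alternatives were TMM scaling, DESeq2 1.42.0, other read minimums, a run block, leaving out runs, and other steps of ∆Lk.

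The members and gene lists were chosen with earlier results of these data known. Named fragments were the 4 least and 4 most negative of each class with at least 50 reads per section, a single genomic occurrence, an adjusted p under 0.05 at equal length and the same side of −1.26 in both runs, 1 per nucleosome. Added to these were the 2 nucleosomes with most fragments, the 3 most abundant fragments and the one examined singly. Fragments inside genes were treated as a class of their own after the data were seen. The run number is the flowcell lane, shared by all samples, and deviations of section A and section B in the same run correlated at 0.125 over 3831 fragments.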

Additional observations from a re-analysis of the deposited data

How the results depend on the processing

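Under TMM scaling the median log2 ratio of all fragments was −0.02, against 0.18 with list totals and the median of the 191 fragments stayed 0.31 above it in both. At equal length the median of all was −0.12 against 0.07, and the 191 lay 0.0156 and 0.0164 above it. With TMM 61 of the 191 fragments were called toward section A and 12 toward section B, against 19.5% and 24.2% of all fragments. At equal length TMM gave 19 and 26, against 10.8% and 19.8%, so that the majority side at equal length turned. Of the 45 calls at equal length, 27 remained and none turned. DESeq2 called 35 (32 toward section A, 3 toward section B), and 8 at equal length (4 each way). With at least 50 reads in each section, 119 fragments remained. Of these, 80 were called toward section A and 5 toward section B, against 42.1% and 20.3% of all fragments with such reads. At equal length 30 and 3 were called, against 26.1% and 15.4%. Leaving out 1 run of a section gave 77 to 86 calls toward section A and 4 to 8 toward section B, and at equal length 33 to 34 and 5 to 9. A replicate block by run gave 102 calls toward section A and 9 toward section B, against 28.9% and 21.1% of all fragments. At equal length it gave 41 and 9, against 19.3% and 14.6%. It changed no count of calls by over 1.5 times.

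Mean ∆Lk moved to −1.24 with at least 50 reads, to −1.13 without the mean of the same length and to −1.25 without the correction per bp. The difference from catalogued genic fragments shrank to 0.00249 when nucleosomes were averaged first, and stayed positive under every setting run, between 0.00249 and 0.0375. Fragments between genes alone (chosen after the data were seen) gave −1.28 and 0.0158, and those inside genes −1.28 and 0.0256. Divergent minus convergent turned to 0.0715 and tandem minus convergent to 0.0722 with at least 50 reads, and to 0.0604 and 0.0586 when flanks could be any annotated gene. Single runs ranged from −0.127 to 0.00989 and from −0.0931 to 0.00607, and divergent minus tandem from −0.0342 to 0.00382. The cause of these moves was not tested.

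Of 21 named fragments tested at equal length, 14 kept their side of the threshold under TMM and 8 of 19 under DESeq2. SEC16, not called with list totals, turned to −0.17 under TMM and was called toward section B there (adjusted p = 0.000595, edgeR), turned to −0.15 under DESeq2 without a call (adjusted p = 0.392), and ranged between −0.0026 and 0.047 with 1 run left out, and a scarce SEC31 fragment ranged between −1.03 and 0.23. One gel was run, so its own spread is unknown.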
